A study of Rattus norvegicus with 3 samples.

Results

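AKBA is acetyl-11-keto-beta-boswellic acid, a triterpenoid of Boswellia resin that is known as an inhibitor of 5-lipoxygenase, the enzyme that starts leukotriene synthesis. The comparison described here is of sciatic nerve of male Sprague-Dawley (SD) rats 30 days after a crush injury, with AKBA against without it, and it rests on 2 of the 3 libraries of the series. In the AKBA library the nerve had been squeezed with vascular forceps and the animal treated with AKBA. The model library came from a crushed nerve whose treatment label reads only control and which is taken as the crushed nerve without AKBA, from the series' naming of a model group. The sham library came from a nerve that was exposed and not crushed. It stands beside the other two below to show the level of an uncrushed nerve, but a difference between model and sham shares the model library with the comparison of AKBA and model, so neither supports the other. Not given in the sources used here were the dose and duration of AKBA, the ages of the rats and whether a library holds 1 animal or a pool.

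Total RNA was freed of ribosomal RNA with probes and sequenced, and the counts per gene were scaled to CPM, a gene's count for every 1e6 counts of its library. Of 22608 genes, 5 ribosomal RNA rows were dropped, and 14565 genes were kept whose levels in AKBA and model averaged 1 CPM or more. Just inside that limit stood Trim30c, at 0.974 CPM in AKBA, 1.03 in model and 0.792 in sham, and just outside it Ugt1a3, at 0.902 CPM in AKBA, 1.1 in model and 3.41 in sham. The comparison of a gene is the log2 of its (CPM + 1) ratio, AKBA over model, called its log2 ratio from here on; the added 1 CPM makes the ratio of low genes look smaller than it is. A gene is called higher or lower when this ratio is at least 2-fold. With 1 library a group there is no replicate, no test and no p-value, and each difference is one between 2 libraries. A member of a list that is near 0 in 1 of the 2 libraries passed the level limit through the other, so the counts of list members below describe the kept genes alone. In tissue RNA, fewer cells of a type and less RNA per cell cannot be told apart.

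A crushed peripheral nerve degenerates beyond the injury, is cleared of myelin debris by Schwann cells and macrophages, and is then remyelinated as axons grow back. Macrophages that have taken up myelin carry a large load of cholesterol, which they store as droplets or export through the transporters Abca1 and Abcg1 onto apolipoprotein E. Remyelinating Schwann cells make much of their own cholesterol and fatty acids for new membrane.

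Both libraries carried the genes of myelinated nerve. Pmp22, a membrane protein of compact peripheral myelin, stood at 10199.7 CPM in AKBA, 11702 in model and 5087 in sham. Periaxin (Prx), which anchors the Schwann cell surface, was at 2390.1 CPM in AKBA, 2435 in model and 1005 in sham. Myelin basic protein (Mbp) was at 1446 CPM in AKBA, 1621 in model and 3402 in sham. Each was close in the 2 crushed nerves, and sham was lower for Pmp22 and Prx and higher for Mbp. The mRNA tables held 90071899 counts in AKBA, 89505656 in model and 74184217 in sham, with 7.68%, 4.20% and 11.5% of them in ribosomal RNA rows in the same order. Of the kept genes 12938 (88.8%) had a ratio within 1.5-fold, and the median log2 ratio was 0.01. In all, 455 genes (3.12% of those kept) stood 2-fold or more higher in AKBA and 182 (1.25%) 2-fold or more lower, and 7457 (51.2%) had a ratio above 1.

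Skeletal muscle genes made up the largest block of higher genes, and they are set apart here from the rest. Of 148 kept muscle genes 95 were past 2-fold higher in AKBA and 0 past 2-fold lower, with a median log2 ratio of 1.44, against 3.12% higher among all genes. Their summed level was 11852 CPM in AKBA, 3305 CPM in model and 2392 CPM in sham. Genes of fast, red and developing fibres were all among those with high ratios. The fast myosin Myh2 had 103 CPM in AKBA, 2.46 in model and 2.71 in sham, and Myh1 had 402 CPM in AKBA, 17.9 in model and 17.6 in sham. The fast light chain Mylpf stood at 254 CPM in AKBA, 14.2 in model and 6.53 in sham, and myoglobin (Mb), the oxygen store of red fibres, at 35.7 CPM in AKBA, 1.81 in model and 2.21 in sham. The myosins of developing fibres, Myh3 and Myh8, were at 14.5 CPM in AKBA, 0.478 in model and 0.0609 in sham and at 11.1 CPM in AKBA, 0.292 in model and 0 in sham. Myogenin (Myog), which drives muscle differentiation, was under the level limit, at 1.7 CPM in AKBA, 0 in model and 0 in sham. Among the 15 muscle genes with a negative log2 ratio were Tmem182 (-0.93) and Myom2 (-0.90), an M-band protein. Igfn1, a sarcomere-associated gene that the muscle list lacks, stood at 13 CPM in AKBA, 0.303 in model and 0.152 in sham.

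Genes of hair and skin, together with all keratin genes, were the other group set apart: 31 members of a hair and skin list and 37 genes whose symbols start with Krt. Of 68 kept genes 32 were at least 2-fold higher in AKBA and 0 lower, with a median log2 ratio of 0.84 and a summed level of 679 CPM in AKBA, 333 CPM in model and 333 CPM in sham. Trichohyalin (Tchh), a protein of the inner root sheath, had 74.8 CPM in AKBA, 2.5 in model and 4.77 in sham. Krt71, a keratin of the same sheath, had 15.9 CPM in AKBA, 0.0816 in model and 0.122 in sham. The hair keratin Krt86 had 1532 counts in AKBA, 3 in model and 5 in sham. The hair keratin Krt31 had 892 counts in AKBA and 0 in the other two libraries. Both sizes rest on the gene table: the transcript placed in Krt86 gave a log2 ratio of 1.47, against 4.23 from gene counts, and the one placed in Krt31 had no counts. Keratin-associated protein genes gave the same picture, with 1640 counts of Krtap7-1 in AKBA, 0 in model and 3 in sham, and 1027 counts of Krtap15-1 in AKBA, 0 in model and 6 in sham. In the model library 17 of the 68 genes had no count. Keratins of simple epithelia in the group lay on the other side, with Krt7 at a log2 ratio of -0.79, Krt19 at -0.64 and Krt8 at -0.39. Cst6, a cystatin known from skin and hair follicles that the list lacks, stood at 16.9 CPM in AKBA, 1.41 in model and 0.838 in sham. The part of muscle and hair tissue in the differences described next was not tested.

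With muscle and hair genes set apart, 328 of 14349 genes (2.29%) were past 2-fold higher in AKBA and 182 (1.27%) past 2-fold lower, and 72 and 21 of these were past 4-fold. A ratio above 1 was found in 7266 of them (50.6%). Low genes passed 2-fold more often. Between 1 and 5 CPM 5.90% of genes were higher and 2.55% lower, whereas at 100 CPM and above the shares were 0.874% and 0.923%. The gene with the ratio nearest above 2-fold was Fabp5, a fatty acid binding protein, at 81.9 CPM in AKBA, 40.1 in model and 74.9 in sham, and the nearest below it was Relt, at 7.6 CPM in AKBA, 3.3 in model and 4.63 in sham. On the lower side, P2rx5 lay just past 2-fold, at 4.12 CPM in AKBA, 9.26 in model and 11 in sham, and Aldh1a3 just short of it, at 10.1 CPM in AKBA, 21.2 in model and 16.5 in sham. The lists of genes used below hold 57 of the 328 higher and 48 of the 182 lower genes, so most genes that differ belong to no list. The counts of list members below are to be set beside the shares of 2.29% higher and 1.27% lower given here.

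**Figure D1:**
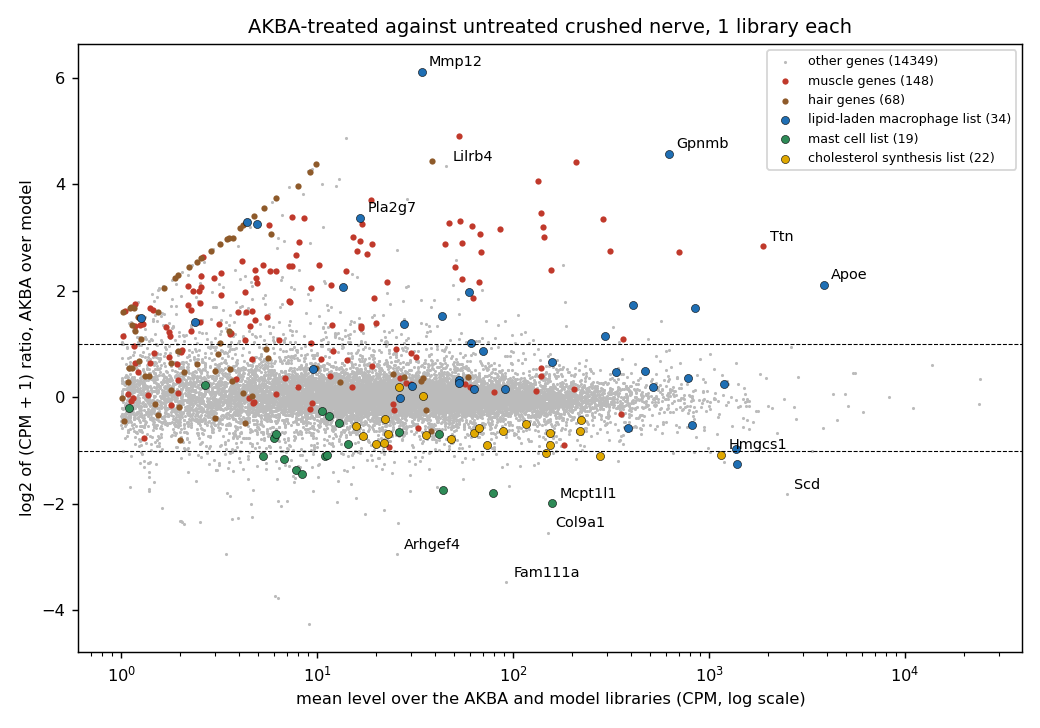
Each point is 1 of 14565 genes, with its mean level over the AKBA and model libraries in CPM on a log axis and its log2 ratio, AKBA over model; dashed lines mark 2-fold. Of the red muscle points 133 of 148 and of the brown hair points 58 of 68 lie above 0, the lipid-laden macrophage list reaches from Lpl at -1.25 to Mmp12 at the top, and the mast cell and cholesterol synthesis lists lie mostly below 0.

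The 15 highest genes outside muscle and hair, at a mean of at least 5 CPM, held many that are known from macrophages. Gpnmb, a glycoprotein of lysosomes and of lipid-loaded macrophages, had 1194 CPM in AKBA, 49.1 in model and 596 in sham. Its ratio of 24.3 had a counting interval of 23.6 to 25.1. The inhibitory receptor Lilrb4 was at 87.3 CPM in AKBA, 3.35 in model and 55.6 in sham, and Lilrb3 at 54.3 CPM in AKBA, 3.17 in model and 89.4 in sham. For these 3 genes the model library was the low one and the other two were high. Lilrb genes are a family of near-identical copies and their counts are uncertain; with sums of transcripts the log2 ratios were 2.77 for Lilrb4 and 2.31 for Lilrb3, against 4.34 and 3.73 with gene counts.

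Other genes of the same 15 were highest in AKBA, with sham between AKBA and model. Hk3, a hexokinase of myeloid cells, had 25.4 CPM in AKBA, 0.536 in model and 6.53 in sham. The chemokine gene Ccl9 stood at 20.8 CPM in AKBA, 0.362 in model and 0.944 in sham, and Pla2g7, a secreted phospholipase that breaks down platelet-activating factor, at 31.1 CPM in AKBA, 2.09 in model and 7.49 in sham. Il1rn, the natural antagonist of the interleukin-1 receptor, had 20.0 CPM in AKBA, 1.29 in model and 3.14 in sham. These 4 genes are known from myeloid cells. Mcoln3, a cation channel of endosomes and lysosomes, followed the same order, at 12 CPM in AKBA, 0.641 in model and 5.04 in sham, as did Crocc2, at 12.7 CPM in AKBA, 0.793 in model and 5.25 in sham. By contrast, Crkl, a signalling adaptor, and Selenbp1, a selenium-binding protein, had similar counts in AKBA and sham and almost none in model, at 975, 0 and 721 counts for Crkl and 1565, 1 and 1590 counts for Selenbp1 in the order AKBA, model and sham. Among all kept genes, 15 had at most 3 counts in either AKBA or model and at least 10 CPM in the other, 12 of them near 0 in model and 3 near 0 in AKBA. A count of 0 is not read here as a lack of the transcript.

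The 15 lowest genes were of mixed kinds. Fam111a, a protease gene, had 14.4 CPM in AKBA, 170.0 in model and 7.26 in sham. Arhgef4, which activates small GTPases, had 5.11 CPM in AKBA, 46 in model and 2.57 in sham. The cartilage-type collagen chains Col9a1 and Col9a2 stood at 43.4 CPM in AKBA, 257 in model and 27.1 in sham and at 13 CPM in AKBA, 46.4 in model and 7.86 in sham. In all 4 the model library was the high one, and AKBA lay closer to sham. The same held for Faim2, an inhibitor of Fas-driven cell death, at 5.64 CPM in AKBA, 29.3 in model and 5.54 in sham, for Grtp1, at 4.56 CPM in AKBA, 20.6 in model and 7.13 in sham, and for the ribonuclease Rnase2, at 2.01 CPM in AKBA, 10.7 in model and 1.72 in sham. The size for Fam111a depended on the table, with a log2 ratio of -1.32 from the 1 transcript placed in it against -3.47 from gene counts, and Grtp1 turned to 1.0 with sums of transcripts. The transcript placed in Arhgef4 had no counts.

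A further set of the lowest genes was below sham as well as model. Grifin, a galectin-related gene first described in lens, had 7.8 CPM in AKBA, 44.1 in model and 99.5 in sham. Mpa2l, a guanylate-binding protein, was at 2.31 CPM in AKBA, 11.7 in model and 27.2 in sham. Gria2, a subunit of AMPA-type glutamate receptors, was at 7.61 CPM in AKBA, 36.1 in model and 24.2 in sham, and Kcnd3, a voltage-gated potassium channel, at 6.08 CPM in AKBA, 25.3 in model and 15.6 in sham. Ccl11, the chemokine eotaxin, had 3.82 CPM in AKBA, 15.3 in model and 17.3 in sham. Scd, the stearoyl-CoA desaturase of fat synthesis, stood at 1097 CPM in AKBA, 3869 in model and 31579 in sham, and the mast cell proteases Mcpt1l1 and Cpa3 completed the 15.

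**Figure D2:**
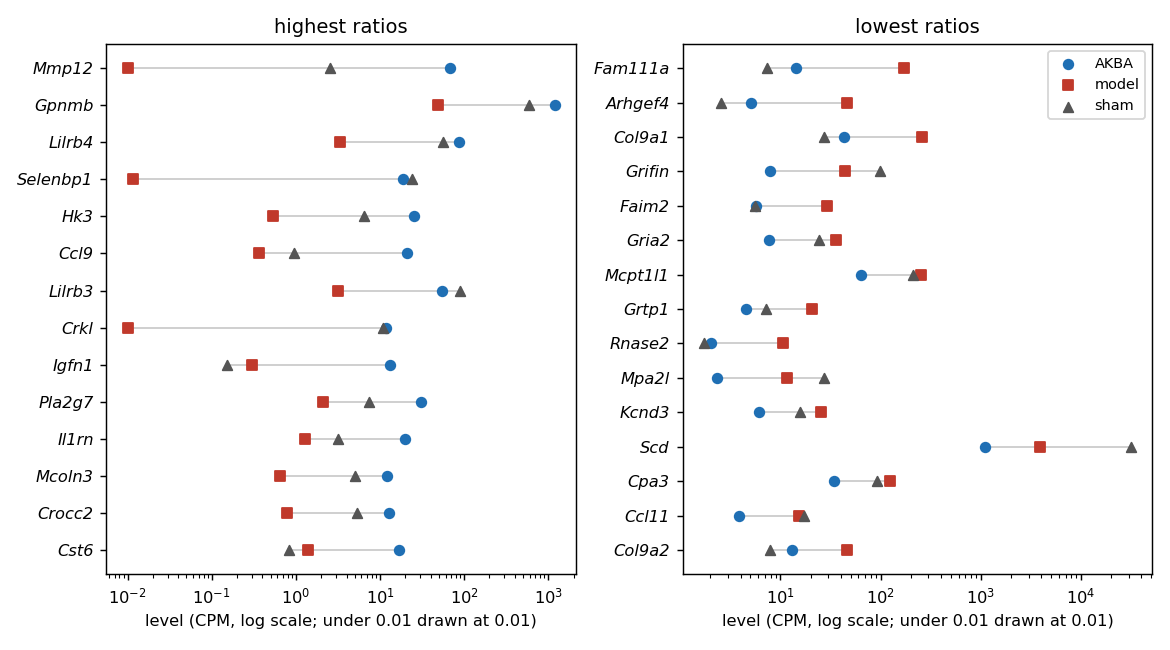
Levels in CPM on a log axis in the AKBA, model and sham libraries (1 point each) for 14 of the 15 genes with the highest and the 15 with the lowest log2 ratio outside muscle and hair; levels under 0.01 CPM are drawn at 0.01. Among the highest shown, model is the lowest of the 3 libraries in all but Igfn1 and Cst6, whereas among the lowest model is above sham in some genes and below it in others, such as Grifin and Scd.

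Genes of lipid-laden macrophages, a list of phagocytosis, lysosome and lipid-handling genes, lay mostly above 0. Of 34 listed, all 34 were kept, 29 had a log2 ratio above 0, and 16 were past 2-fold higher and 1 past 2-fold lower, with a median of 0.77, against 2.29% higher, 1.27% lower and a median of 0.004 among all genes outside muscle and hair. Mmp12, the macrophage elastase, had 5688 counts in AKBA, 0 in model and 169 in sham. Atp6v0d2, a subunit of the lysosomal proton pump, had 8.75 CPM in AKBA, 0 in model and 4.02 in sham. The receptor Trem2, which senses lipid debris, was at 40.6 CPM in AKBA, 14.9 in model and 20.4 in sham, and Itgax, the integrin CD11c, at 22.5 CPM in AKBA, 4.58 in model and 7.49 in sham. The lectin gene Lgals3 stood at 407 CPM in AKBA, 184 in model and 265 in sham. All 5 were highest in AKBA. Members that stayed within 2-fold included the cathepsins Ctsb (log2 ratio 0.24), Ctsd (0.50), Ctsk (0.66) and Ctsl (0.19), the droplet protein Plin2 (0.16) and the scavenger receptor gene Cd36 (-0.57). Osteopontin (Spp1), often grouped with these cells, lay below a ratio of 1, at 676 CPM in AKBA, 966 in model and 569.7 in sham. Cd36, Lpl and Fabp4 are shared with the list of fat cell genes. Lpl and Fabp4 lay below 0 too, with log2 ratios of -1.25 and -0.97.

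General macrophage markers did not follow as one. Of 21 in the table all were kept, 13 above 0 and 8 below, with 5 at least 2-fold higher and a median log2 ratio of 0.33. Csf1r, the receptor for macrophage colony-stimulating factor, was at 225 CPM in AKBA, 290.0 in model and 295 in sham, Adgre1 (F4/80) at 65.8 CPM in AKBA, 77.3 in model and 62.5 in sham and the complement gene C1qa at 191 CPM in AKBA, 204 in model and 206 in sham. These 3 markers, present in most tissue macrophages, stood slightly under model in AKBA. Mpeg1, a pore-forming protein of macrophages, was instead at 285 CPM in AKBA, 81.1 in model and 194 in sham, Itgb2, the common chain of leukocyte integrins, at 112 CPM in AKBA, 26.7 in model and 43.2 in sham, and lysozyme (Lyz2) at 1295 CPM in AKBA, 404 in model and 1173 in sham. Fcgr3a, an antibody receptor, had 6.69 CPM in AKBA, 1.38 in model and 1.77 in sham.

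Genes of resident macrophages went the other way. Of 19 in the table, 16 were kept, 13 of them below 0, with a median of -0.26. At least 2-fold lower were 5, against 1.27% of all genes outside muscle and hair, and 0 were at least 2-fold higher. Cd209f, a lectin, had 0.986 CPM in AKBA, 8.36 in model and 3.65 in sham. Fcna, a ficolin that binds microbial sugars, had 44.9 CPM in AKBA, 144 in model and 78.1 in sham. Ccl24, a chemokine of the eotaxin group, was at 10.3 CPM in AKBA, 22.1 in model and 12.4 in sham, and the haemoglobin scavenger receptor Cd163 at 109.8 CPM in AKBA, 222 in model and 186 in sham. With the transcript placed in Ccl24 its log2 ratio was -0.25, against -1.03 from gene counts, which ends the call. Lyve1, shared with lymphatic endothelium, was at 34.9 CPM in AKBA, 78.4 in model and 88.8 in sham. The mannose receptor Mrc1 (-0.43) and Folr2 (-0.21) differed less. The lists of lipid-laden and of resident macrophages share no gene.

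Surface receptors of myeloid cells lay mostly above 0, at 23 of 25 kept members above 0 (27 in the table), with 9 at least 2-fold higher, 1 lower and a median of 0.67. Clec7a, the receptor dectin-1 for fungal glucans, had 45.3 CPM in AKBA, 5.83 in model and 31.9 in sham. Cd300a and Cd300lf, which bind phospholipids of dying cells, had 11.4 CPM in AKBA, 1.67 in model and 4.48 in sham and 8.19 CPM in AKBA, 1.15 in model and 5.82 in sham. Clec4d, another lectin receptor, was at 4.39 CPM in AKBA, 0.536 in model and 2.04 in sham. The exception was Cd300lg, a receptor of endothelium in mouse, at 3.28 CPM in AKBA, 11.9 in model and 6.14 in sham. Among myeloid genes outside the lists, chosen after their values were seen, Cd84 stood at 26.9 CPM in AKBA, 4.82 in model and 19.1 in sham, the phagosomal metal transporter Slc11a1 at 17.7 CPM in AKBA, 4.96 in model and 10.5 in sham and the oxidase subunit Cybb at 134 CPM in AKBA, 48.6 in model and 76.4 in sham. All 3 were highest in AKBA and lowest in model.

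**Figure D3:**
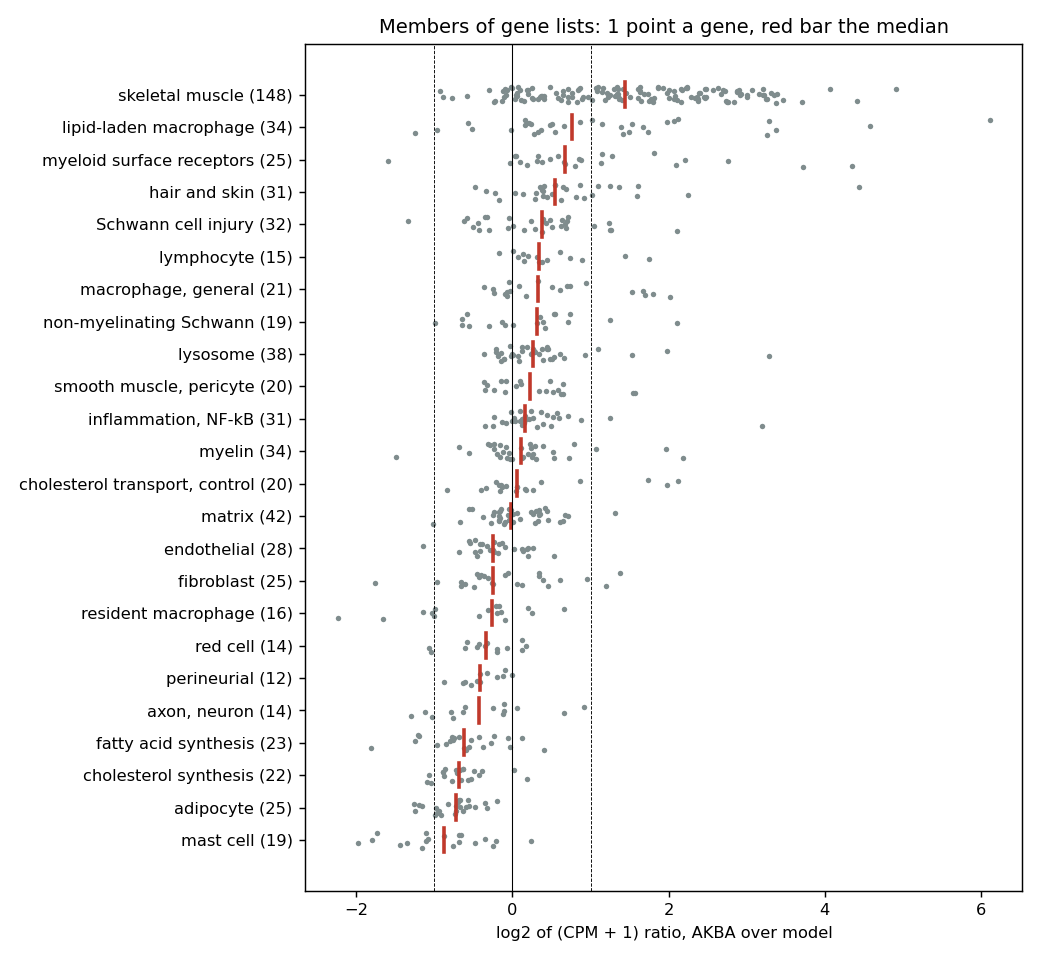
Log2 ratios, AKBA over model, of the kept members of gene lists (1 point a gene, number in brackets), with the median as a red bar and dashed lines at 2-fold. Lists run from mast cell at -0.88 to skeletal muscle at 1.44, and the lists of lipid-laden and resident macrophages lie on opposite sides of 0.

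Cholesterol synthesis genes lay mostly below 0. Of 22 genes on the list of this pathway and its branches, 20 had a log2 ratio below 0, with a median of -0.68 over the list. Past 2-fold lower were 3, against 1.27% of all genes outside muscle and hair, and 0 were at least 2-fold higher. Hmgcs1, which makes HMG-CoA, had 744 CPM in AKBA, 1568 in model and 545 in sham. Cyp51, a lanosterol demethylase, was at 176 CPM in AKBA, 378 in model and 168 in sham, and Sc5d, a late desaturase, at 95.8 CPM in AKBA, 198 in model and 101 in sham. In these 3 AKBA lay nearer sham than model. The 2 members above 0 were Lbr (0.19) and Ggps1 (0.02).

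Several genes that carry cholesterol out of cells or free it in lysosomes were higher, Abcg1 short of 2-fold; Apoe, Abca1, Abcg1 and Lipa also belong to the lipid-laden macrophage list described above. Apoe, the main lipid carrier of nerve, had 6246 CPM in AKBA, 1439 in model and 3433 in sham. The exporter Abca1 stood at 628 CPM in AKBA, 188 in model and 320.0 in sham and Abcg1 at 90.9 CPM in AKBA, 49.3 in model and 51.3 in sham. Lysosomal acid lipase (Lipa), which frees cholesterol from its esters, was at 95.7 CPM in AKBA, 23.5 in model and 43.1 in sham. Apoc1, a small apolipoprotein in the same gene cluster as Apoe, had 9.78 CPM in AKBA, 0.128 in model and 3.55 in sham, and Apoc4, a neighbour chosen after its values were seen, had 490 counts in AKBA, 0 in model and 123 in sham. In each of these genes AKBA was the highest of the 3 libraries. The liver X receptors Nr1h2 (0.04) and Nr1h3 (-0.15) and the carrier Npc1 (0.06) were within 1.5-fold. The regulators Srebf2 (-0.40) and Insig1 (-0.84) were below 0. Over the 20 kept genes of transport and control, 11 were above 0, 3 past 2-fold higher and 0 past 2-fold lower, with a median of 0.05. Among all genes outside muscle and hair, 50.6% were above 0.

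**Figure D4:**
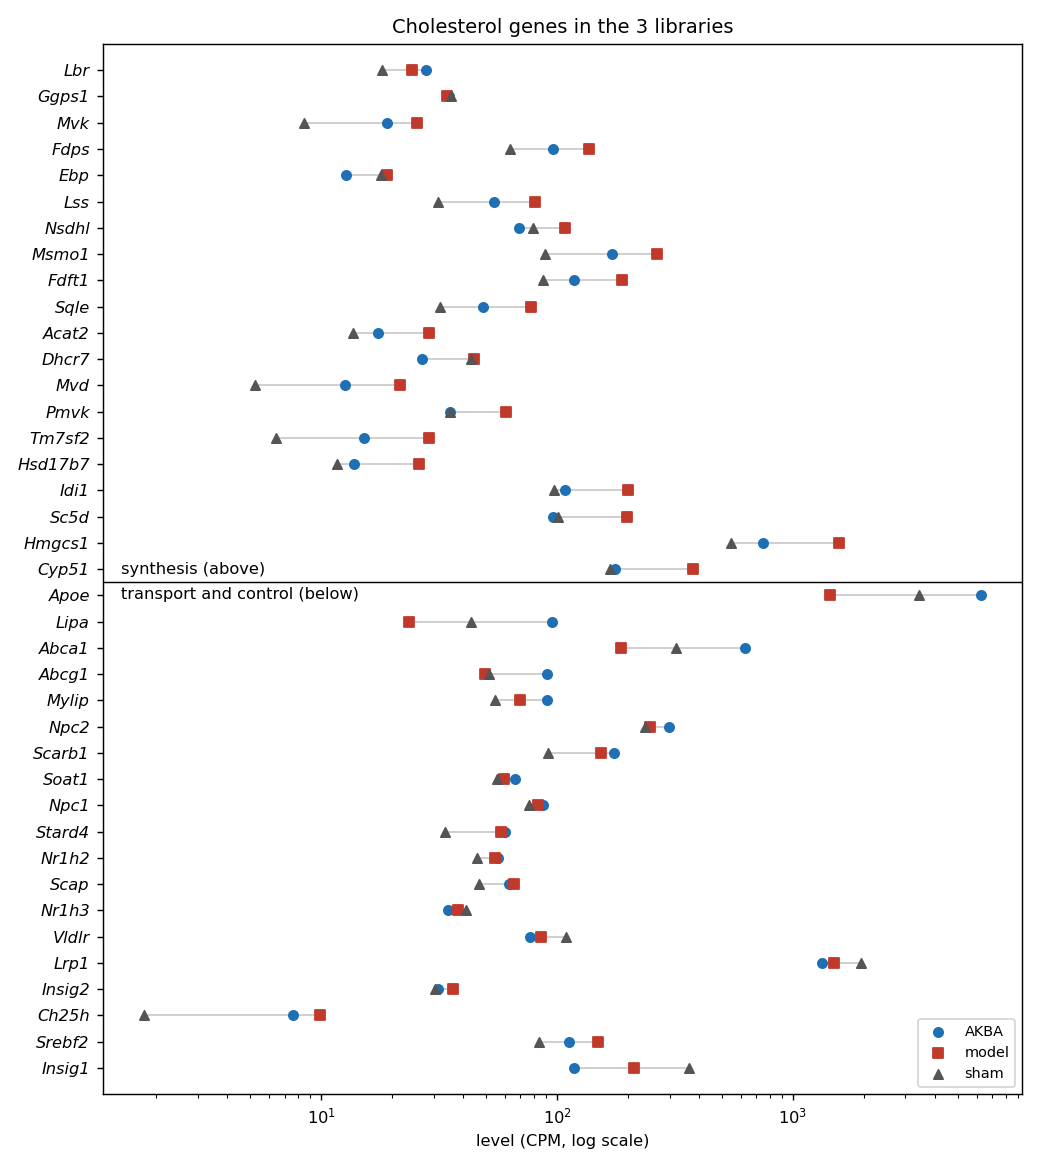
Levels in CPM on a log axis of 20 of the 22 cholesterol synthesis genes (above the line) and 19 of the 20 genes of cholesterol transport and control (below it) in the AKBA, model and sham libraries, each block sorted by its log2 ratio. In the upper block model lies right of AKBA in all but Lbr and Ggps1, and in the lower block Apoe, Lipa, Abca1 and Abcg1 have AKBA furthest right.

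Promoter letters of 2 genes that were higher in AKBA are shown because both carry the core CACGTG, an E-box read by several families of transcription factors, among them those of lysosomal genes. RefSeq promoters of build GRCr8 (250 bases before to 50 after the start) were searched on both strands, after the values were known. CACGTG stood in 6 of 25 lipid-laden macrophage promoters that could be matched (24.0%), in 7 of 28 lysosome promoters (25.0%, with Ctsd and Cd63 in both lists) and in 1826 of 27457 promoters in all (6.65%). The other 4 lipid-laden carriers, Cd63 (0.49), Ctsd (0.50), Nceh1 (0.54) and Plin2 (0.16), were within 2-fold, and none of the 7 lysosome carriers is among the 4 higher lysosome genes. The longer form TCACGTGA stood in 1 of the 25, in 4 of the 28 and in 238 of all (0.867%). The letters TCACNCCAC, one form of a sterol regulatory element, stood in 0 of 17 cholesterol synthesis promoters and in 310 of all (1.13%). At so low a share 17 promoters are too few to tell, so the 0 is not read as a lack of such elements. The plan had been to show promoters of cholesterol synthesis genes past 2-fold with the letters TCACNCCAC, of which there were 0. The 2 with the E-box were picked in their place. The 2 promoters are read 5′ to 3′ on the gene's strand, with the E-box in capitals; Abca1 lies on the minus strand at chr5:72596424-72596723 and Mmp12 on the plus strand at chr8:12866402-12866701.
Abca1: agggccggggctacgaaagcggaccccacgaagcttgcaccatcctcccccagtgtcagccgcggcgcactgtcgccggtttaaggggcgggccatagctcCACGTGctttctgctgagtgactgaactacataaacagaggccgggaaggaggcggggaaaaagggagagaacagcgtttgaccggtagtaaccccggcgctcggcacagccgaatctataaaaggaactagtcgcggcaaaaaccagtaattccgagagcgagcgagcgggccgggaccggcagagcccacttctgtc
Mmp12: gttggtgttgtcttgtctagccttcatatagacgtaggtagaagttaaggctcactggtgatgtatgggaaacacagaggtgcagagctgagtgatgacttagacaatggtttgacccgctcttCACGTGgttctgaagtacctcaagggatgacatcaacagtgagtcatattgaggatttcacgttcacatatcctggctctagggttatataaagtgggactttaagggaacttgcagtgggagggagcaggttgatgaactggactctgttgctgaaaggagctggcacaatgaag
A match is a description of letters and not a site of binding. The 1 transcript placed in Abca1 had no counts in any library, so its ratio rests on the gene table.

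Fat cell genes had log2 ratios below 0 in all 25 kept members (27 in the table), with a median of -0.72. At least 2-fold lower were 4 of the 25, against 1.27% of all genes outside muscle and hair. The fat cell genes had a summed level of 7509 CPM in AKBA, 14273 CPM in model and 26083 CPM in sham. Leptin (Lep) had 74.3 CPM in AKBA, 179.9 in model and 401 in sham (log2 ratio -1.26, and -0.83 with sums of transcripts), and the glycerol channel Aqp7 38 CPM in AKBA, 86.2 in model and 183 in sham. Car3, an abundant carbonic anhydrase of fat, was at 2246 CPM in AKBA, 4489 in model and 7664 in sham. All 3 were lowest in AKBA and highest in sham. Fatty acid synthesis genes were below 0 in 21 of 23 members and past 2-fold lower in 4, with a median of -0.62. Malic enzyme (Me1), which supplies NADPH, was at 54.4 CPM in AKBA, 131 in model and 1051 in sham and fatty acid synthase (Fasn) at 722 CPM in AKBA, 1669 in model and 5637 in sham. Thrsp, which belongs to both lists, was at 206 CPM in AKBA, 476 in model and 2051 in sham. Srebf1, the regulator of these genes, was one of the 2 members above 0, with a log2 ratio of 0.40. Rbp4, the retinol carrier of fat and liver, named after its values were seen, was at 129 CPM in AKBA, 288 in model and 818 in sham.

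Mast cell genes had log2 ratios below 0 in 18 of 19 kept members, with a median of -0.88. Past 2-fold lower were 9 of the 19, against 1.27% of all genes outside muscle and hair. The mast cell genes had a summed level of 250.3 CPM in AKBA, 679 CPM in model and 590.4 CPM in sham. Mcpt1l1, a protease of a family of near-identical copies, had 63.5 CPM in AKBA, 254 in model and 209.8 in sham. Carboxypeptidase Cpa3 was at 34.5 CPM in AKBA, 123 in model and 92.5 in sham and chymase Cma1 at 19.6 CPM in AKBA, 67.6 in model and 40.8 in sham. The enzyme for serotonin, Tph1, was at 4.05 CPM in AKBA, 12.7 in model and 9.76 in sham, and Mrgprb3, a Mas-related receptor of mast cells, was at 3.94 CPM in AKBA, 11.6 in model and 13.2 in sham. The chains of the IgE receptor, Fcer1a and Ms4a2, had 2.97 CPM in AKBA, 7.55 in model and 5.85 in sham and 6.78 CPM in AKBA, 15.5 in model and 17.9 in sham. Each of these 7 genes was lowest in AKBA. Kit, the receptor for stem cell factor, was at 31.8 CPM in AKBA, 51.8 in model and 41.2 in sham, and the 1 member above 0 was Mrgprx2 (0.23). Of the 27 members in the table, 8 were under the level limit, 5 of them (Mcpt1, Mcpt3, Mcpt4, Mcpt1l3 and Mcpt1l4) at 0 counts in AKBA and in model.

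Genes of the leukotriene and prostaglandin pathways were a list of synthetic enzymes, receptors and 1 degrading enzyme (Hpgd). They lay mostly below 0, at 19 of 29 kept members (31 in the table), with a median of -0.26. Past 2-fold lower were 3 of the 29, against 1.27% of all genes outside muscle and hair, and 0 were past 2-fold higher. Alox5, the 5-lipoxygenase, had 18.8 CPM in AKBA, 26 in model and 25.3 in sham. Its helper Alox5ap was at 15.5 CPM in AKBA, 24.4 in model and 18.2 in sham and Lta4h, which makes leukotriene B4, at 42.2 CPM in AKBA, 59.8 in model and 45.1 in sham. These 3 genes were lowest in AKBA but within 2-fold. Larger differences, also short of 2-fold on the log2 ratio, were those of Ltc4s (-0.87) and the receptor Ltb4r (-0.99). Ltc4s was at 9.12 CPM in AKBA, 17.5 in model and 7.83 in sham, and Ltb4r at 1.08, 3.13 and 0.929 CPM in the same order. Both were lowest in sham. Ptges, which makes prostaglandin E2, had 4.25 CPM in AKBA, 12 in model and 6.97 in sham, Alox15 3.39 CPM in AKBA, 8.08 in model and 2.89 in sham and the receptor Ptger3 9.58 CPM in AKBA, 20.7 in model and 33.1 in sham. Thromboxane synthase Tbxas1 was above 0 (0.84). This list and the mast cell list share 1 gene, Hpgds.

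Lymphocyte genes were above 0 in 14 of 15 kept members, 2 at least 2-fold, with the cytotoxic T cell genes Cd8a at 8.91 CPM in AKBA, 1.94 in model and 2.53 in sham and Cd8b at 2.57 CPM in AKBA, 0.315 in model and 1.05 in sham, whereas Cd3e (-0.17) and Cd2 (0.06), which mark T cells in general, were close in both. Of 20 neutrophil genes 9 were kept, with 1 higher and 3 lower past 2-fold, and S100a8 and Elane were under the level limit. Mmp9 had 7.08 CPM in AKBA, 0.548 in model and 0.289 in sham, Mpo had 15.4 CPM in AKBA, 44.3 in model and 61.5 in sham and the chemokine receptor Cxcr2 had 1.44 CPM in AKBA, 4.02 in model and 3.08 in sham. Retnlg had 0.168 CPM in AKBA, 4.89 in model and 0.579 in sham. The sums of transcripts gave Retnlg a log2 ratio of -0.10 (-2.33 from gene counts) and Cxcr2 one of -0.985 (-1.04 from gene counts), so both calls are lost there. Inflammatory and NF-kB genes were above 0 in 24 of 31 members by small amounts (median 0.17), with Il1rn and the chemokine Ccl3, at 4.97 CPM in AKBA, 1.5 in model and 2.28 in sham, the 2 past 2-fold. Complement genes were split evenly, at 12 above and 12 below 0, with 1 past 2-fold each way. The central component C3 stood at 53.7 CPM in AKBA, 14.4 in model and 18 in sham, and Cd55, which speeds the decay of complement convertases, at 24.2 CPM in AKBA, 50.6 in model and 47.7 in sham. Red cell genes were below 0 in 11 of 14, with Hba1 at 427 CPM in AKBA, 885 in model and 583 in sham; its log2 ratio was -1.05, and -0.61 with sums of transcripts.

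Myelin genes had no shared direction. Of 35 in the table, 34 were kept, 18 above 0 and 16 below, with a median of 0.11, 3 at least 2-fold higher and 1 lower. Pou3f1, which acts as Schwann cells begin to myelinate, had 18.4 CPM in AKBA, 3.27 in model and 2.74 in sham, its relative Pou3f2 14.6 CPM in AKBA, 6.4 in model and 9.09 in sham and the connexin Gjc3 36.8 CPM in AKBA, 8.7 in model and 12.2 in sham. Mog, a myelin protein of the central nervous system, had 0.253 CPM in AKBA, 2.52 in model and 1.63 in sham; with sums of transcripts its log2 ratio was -0.18, against -1.49, which ends the only lower call of the list. Of the structural genes Mbp and Pmp22 were close in the crushed nerves, with log2 ratios of -0.17 and -0.20. Others lay further from 0 but within 2-fold, with Cnp (0.79) above 0 and Pmp2 (-0.69) and Drp2 (-0.55) below it. Sox10, the master factor of the Schwann lineage, had a ratio of 0.51 and its partner Egr2 0.25.

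Genes of injured Schwann cells were above 0 in 21 of 32 kept members (36 in the table), with a median of 0.38. At least 2-fold higher were 5 and lower 1, against 2.29% and 1.27% of all genes outside muscle and hair. Ngfr, the low-affinity neurotrophin receptor, had 80.8 CPM in AKBA, 18 in model and 28 in sham. Sox2, an immaturity factor, was at 24.1 CPM in AKBA, 9.53 in model and 7.14 in sham, the injury-induced Atf3 at 53.5 CPM in AKBA, 22.1 in model and 18.6 in sham and the growth factor Gdnf at 1.98 CPM in AKBA, 0.443 in model and 0.746 in sham. AKBA was highest in all 4, Gdnf near the level limit. The transcripts placed in Gdnf had no counts, so its call rests on the gene table. Runx2, the remaining member past 2-fold higher, was at 10.6 CPM in AKBA, 3.85 in model and 10.2 in sham, so AKBA and sham were close. Jun, which drives the repair state, was within 2-fold (0.62), as was the receptor Erbb3 (0.70). Among the 11 members below 0, Ncam1 (-0.59), Gap43 (-0.45) and Cdh2 (-0.31) were within 2-fold too. Shh, made by repair cells, was lower, at 11.7 CPM in AKBA, 31 in model and 9.5 in sham, and its antagonist Hhip stood at 5.82 CPM in AKBA, 13.3 in model and 14 in sham. Axon and neuron genes were below 0 in 11 of 14 kept members (22 in the table) and at least 2-fold lower in 3. Uchl1, an abundant neuronal hydrolase, was at 19.4 CPM in AKBA, 43.5 in model and 15 in sham, the synuclein Sncg at 549 CPM in AKBA, 1119 in model and 970.0 in sham and the neurofilament gene Nefh at 0.325 CPM in AKBA, 2.27 in model and 1.29 in sham. The other neurofilaments, Nefl (0.66) and Nefm (0.92), were above 0. Sncg made up most of the summed level of the list, which was 741 CPM in AKBA, 1343 in model and 1104 in sham. From which cells the Sncg RNA came was not tested.

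The sheath and the vessels differed by small amounts. All 12 kept perineurial genes, of 16 in the table, were below 0 with 0 past 2-fold and a median of -0.42, from Sfrp5, a Wnt antagonist, at 255 CPM in AKBA, 469 in model and 188 in sham, to Kcnj13 (-0.01). Endothelial genes were below 0 in 20 of 28, with Lyve1 the single gene past 2-fold and a median of -0.24. Smooth muscle and pericyte genes split in part by kind. The contractile genes Cnn1, at 79.8 CPM in AKBA, 26.2 in model and 34.5 in sham, and Actg2, at 158 CPM in AKBA, 53.5 in model and 47.4 in sham, were past 2-fold. Acta2, Myh11 and Tagln stood at log2 ratios of 0.62, 0.65 and 0.65. The pericyte genes Cspg4 (-0.37), Kcnj8 (-0.35) and Rgs5 (-0.33) were below 0. Other pericyte genes lay nearer 0, on either side: Abcc9 (-0.24), Notch3 (-0.15), Higd1b (-0.10), Mcam (-0.08), Ndufa4l2 (0.04) and Pdgfrb (0.09). Fibroblast genes were below 0 in 15 of 25 (median -0.25), with Ccl11 lower and Smoc2, at 153 CPM in AKBA, 66 in model and 150.3 in sham, and Cthrc1, at 24 CPM in AKBA, 8.61 in model and 17.9 in sham, higher. In the matrix list 20 of 42 were above 0 and the median was -0.01. Thbs2, a thrombospondin, was at 461 CPM in AKBA, 185 in model and 283 in sham, and periostin (Postn) at 669 CPM in AKBA, 1354 in model and 951 in sham.

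Cell cycle, respiratory chain and heat shock genes had 0 members past 2-fold of 31, 37 and 21 kept, and medians of 0.01, 0.01 and -0.03. Clock genes were above 0 in 13 of 18 (median 0.37), with Bhlhe41 at 41.3 CPM in AKBA, 14.2 in model and 22.7 in sham, Dbp at 60.6 CPM in AKBA, 33 in model and 22.6 in sham and Cry1 at 5.01 CPM in AKBA, 9.25 in model and 6.08 in sham; the hour of tissue collection was not given in the sources used here. Of the immediate early genes Fos had 52.5 CPM in AKBA, 19.5 in model and 11 in sham and Fosb 7.85 CPM in AKBA, 1.47 in model and 1.71 in sham, both highest in AKBA, whereas Arc, a gene of activity in neurons, had 3.72 CPM in AKBA, 10.6 in model and 1.01 in sham. Of the antioxidant genes the cystine transporter Slc7a11 was at 36.6 CPM in AKBA, 10.2 in model and 12.8 in sham and Gpx2 at 4.15 CPM in AKBA, 10.6 in model and 16 in sham, while the regulator Nfe2l2 (0.13) and Hmox1 (-0.02) were close.

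The remaining lists had few members past 2-fold. Lysosome genes were above 0 in 27 of 38 (median 0.26), and the 4 that were higher were Atp6v0d2, Lipa, Cd68 and Gusb, a glucuronidase, at 72.7 CPM in AKBA, 33.4 in model and 44.6 in sham. Of 30 kept matrix protease genes 15 were above 0, with Mmp12, Mmp9 and Mmp17, at 18.1 CPM in AKBA, 7.86 in model and 7.29 in sham, higher; Mmp17 had a log2 ratio of 1.11, and 0.97 with sums of transcripts. Cartilage genes split, with the collagen chains Col9a1 and Col9a2 lower and Epyc, a small proteoglycan, at 14 CPM in AKBA, 1.34 in model and 0.670 in sham, and Prg4, the joint lubricant, at 15.6 CPM in AKBA, 7.08 in model and 19.1 in sham, higher. Interferon-driven genes were above 0 in 24 of 34 (median 0.21), with Mpa2l the only one of them past 2-fold. Antigen presentation genes were above 0 in 14 of 22, with RT1-A1, a class I gene among near-identical copies, at 20.1 CPM in AKBA, 7.71 in model and 7.77 in sham. Wnt, hedgehog and TGF-beta genes were below 0 in 27 of 44, Shh and Hhip past 2-fold. Neurotrophic factor genes were above 0 in 16 of 33 and genes of non-myelinating Schwann cells in 11 of 19. Glutamate and GABA genes were even at 7 and 7, with Gria2 lower and Grin2b, another receptor subunit, at 37.4 CPM in AKBA, 15.8 in model and 35.6 in sham. Targets of the glucocorticoid receptor were above 0 in 7 of 18, with 0 past 2-fold.

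The lncRNA table, counted from the same libraries, differed in its scale. 1 row took 23.2% of its counts in AKBA and 16.3% in model, and the median log2 ratio of 12147 kept lncRNA genes was -0.35. With totals as the scale, 170 lncRNA genes (1.40%) were past 2-fold higher in AKBA and 677 (5.57%) past 2-fold lower, with 20.1% above a ratio of 1, whereas with TMM scaling, which brought the median to -0.01, the counts were 329 higher and 203 lower. The split is therefore set by the scaling, and only large ratios are named. NONRATG018241.2 had 12846 counts in AKBA and 0 in model and sham, NONRATG004818.2 had 613, 0 and 0, and NONRATG003531.2 had 1289, 35 and 7 counts in the same order. On the lower side, NONRATG023164.2 had 0 counts in AKBA, 2109 in model and 1113 in sham, NONRATG011924.2 had 27, 328 and 234, and NONRATG020491.2 had 196, 1349 and 1154.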

How the data were processed

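Total RNA of rat sciatic nerve, depleted of ribosomal RNA, was sequenced in 3 libraries (AKBA, model, sham; 1 each). The authors deposited whole-number counts per mRNA gene, mRNA transcript and lncRNA gene, read as raw counts from their values; in the last column, the model library in the mRNA tables, each count carries 2 stray characters that make it other than a plain number, and they were stripped. Per the submitters' processing notes, bcl2fastq 2.0, HISAT2, StringTie, DESeq2 and limma were used, with roles not given and the mouse build mm10 named, although the rows are rat identifiers; strand, filters and pooling were not given in the sources used here. Columns of the mRNA tables were assigned by the key in the series' design text, and those of the lncRNA table by the letter that opens each title.

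From the counts, CPM was computed on totals without 5 ribosomal RNA rows (83156283 in AKBA, 85746202 in model and 65670624 in sham), and log2 ratios with 1 CPM added (Python 3.11.15, pandas 2.3.3). A count of 0 allows up to 0.0361 CPM in AKBA, 0.0350 in model and 0.0457 in sham. Exact 95% intervals of a ratio, from counting error alone, run from 0.727 to 1.36 at 1 CPM and from 0.970 to 1.03 at 100 CPM; duplicate reads and animals add error that they do not cover. The code was tested on simulated data. Alternatives were TMM and upper quartile scaling (edgeR 4.0.16), DESeq2 1.42.0 size factors, ribosomal rows kept, 0.1 CPM added, a 5 CPM limit and sums of transcripts placed in genes by RefSeq accession (31051 of 55767). Further alternatives left muscle and hair genes out of the totals, kept every gene with a count, or took the 1 CPM mean over all 3 libraries. Of 22608 gene rows, 19236 matched a RefSeq symbol or synonym. Members and gene lists were chosen with earlier results of these data known. Genes were named by rule: the 15 highest and 15 lowest at a mean of at least 5 CPM with a gene symbol and outside muscle and hair, list members past 2-fold (otherwise the 3 largest), genes with at most 3 counts in 1 library and at least 10 CPM in the other, the 5 highest muscle and hair genes, and 3 lncRNAs each way; others are given as examples of a list's unmoved members or are said to be chosen after their values were seen. A few genes are not reported here. The lncRNA transcript table was not used.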

Additional observations from a re-analysis of the deposited data

How the results depend on the processing

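With 1 library a group no result has a replicate check. No paired analysis was possible because each group has 1 library. Counts of genes past 2-fold moved with several settings. At 5 CPM, 250 genes were higher and 121 lower, and 187 and 121 with muscle and hair set apart. With 0.1 CPM added 284 genes were lower (282 set apart), and with sums of transcripts 315 (314). Under 5 CPM the share of mast cell members above 0 was 0.0%, and with sums of transcripts that of cholesterol synthesis was 0.0%. Lists near an even split crossed it: cell cycle was 48.4% above 0 with upper quartile scaling, 48.4% with DESeq2 size factors and 45.2% with ribosomal rows kept, and the respiratory chain 48.6%, 48.6% and 35.1%. Ankrd23 (-0.32) and Grtp1 (1.0) turned sign with sums of transcripts. For lncRNA, 329 were higher and 203 lower with TMM, 292 and 1366 with 0.1 CPM added, and 76 and 359 at 5 CPM. The cause of these shifts was not tested, beyond fewer genes at the 5 CPM limit. Each of the 41 lists was counted once in each setting, and 400 of these list shares kept their side and size. Named genes were also counted once in each setting. Of these ratios, 856 lay within the counting interval, 1484 lay outside it with the same sign and 2 turned sign. That interval is of the ratio without the added 1 CPM. A ratio can therefore lie outside it although the setting did not change it, and the 1484 are not read as a measure of movement.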
